A study of Homo sapiens with 12 samples.

Results

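The genes described here restrain, or help to set, the activity of mTORC1, the kinase complex that couples nutrients and growth signals to protein synthesis. They were chosen by symbol: DDIT4, SESN1, SESN2, SESN3, TSC1, TSC2, DEPTOR, FLCN, FNIP1 and RRAGD, 10 of the 28278 genes in the count table. Bulk RNA sequencing of polyadenylated RNA had been done on cells carried through repeated hydroxychloroquine (HCQ) exposure and on control cells, in OVCAR3 (ovarian cancer of the high-grade serous kind) and CCL218 (colorectal cancer), both established lines. The study describes both lines as p53 mutant. HCQ is a weak base that accumulates in lysosomes and blocks autophagy. The comparison asks which transcripts stayed altered once the drug was gone.

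There were 4 groups of 3 pools each: control OVCAR3, HCQ-evolved OVCAR3, control CCL218 and HCQ-evolved CCL218. The HCQ-evolved cells, labelled passage 15, had received 15 pulses of HCQ of 48 h each, and the control cells, labelled passage 19, had been passaged without the drug. Cells grew in drug-free medium for 7 days before collection. A pool joined the wells of the left (L), middle (M) or right (R) part of a 96-well plate, so the pools of a group share a plate and the p-values measure the spread between these pools. Passage number and treatment cannot be told apart. In pooled RNA, fewer cells of a type and less RNA per cell cannot be told apart.

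Total counts ran from 31147822 to 59965861 per pool, with 16569 to 18992 genes detected. Markers of the labelled tissues separated the lines only in part. The identity of the lines therefore rests on the labels, and OVCAR3 and CCL218 below mean the pools so labelled. Of 8 ovarian markers, EMX2, ESR1 and SOX17 had at most 2 counts in any pool, and of 8 colorectal markers, KRT20 had at most 4, while VIL1, a colorectal marker, lay between 78.5 and 290 CPM (counts per library scaled to a common total) in the OVCAR3 pools. MSLN, an ovarian marker, was higher in the pools labelled CCL218 (46.4 to 128 CPM) than in those labelled OVCAR3 (2.21 to 18.3 CPM). The ovarian markers MUC16 and WFDC2 went the other way, with ranges that overlapped slightly. MUC16 lay between 13 and 50.1 CPM in OVCAR3 and between 3.65 and 14.3 CPM in CCL218. WFDC2 lay between 11.9 and 42.3 and between 4.48 and 13 CPM. PAX8 did not separate the lines, at 7.23 to 14.9 CPM in OVCAR3 and 6.4 to 11.2 CPM in CCL218. WT1 reached at most 2.35 and 1.39 CPM. LGR5, an intestinal stem cell marker, lay between 13.9 and 31.7 CPM in OVCAR3 and between 15.0 and 43.7 CPM in CCL218. CDX2, the intestinal factor, lay between 0.803 and 13.7 and between 21.2 and 71.3 CPM, lower in every OVCAR3 pool than in any CCL218 pool. The colorectal markers CDH17 and GPA33 averaged 3.34 and 3.10 CPM in control OVCAR3 and 3.84 and 4.77 CPM in control CCL218. In HCQ-evolved pools they averaged 3.50 and 5.22 CPM in OVCAR3 and 52.5 and 34.7 CPM in CCL218. The summed colorectal markers ranged from 246 to 333 CPM in control OVCAR3, from 116 to 172 in HCQ-evolved OVCAR3, from 242 to 277 in control CCL218 and from 324 to 381 in HCQ-evolved CCL218. The summed ovarian markers ranged from 56.1 to 97.7, 77.3 to 100, 66.0 to 134 and 107 to 149 CPM in the same order. The colorectal sums were lower in every HCQ-evolved OVCAR3 pool and higher in every HCQ-evolved CCL218 pool than in the controls, and their part in the results below was not tested. Of 5 markers of blood, stromal and endothelial cells, PTPRC and COL3A1 had at most 5 counts in any pool, and the summed list lay between 2.80 and 5 CPM.

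mTORC1 works at the lysosomal surface, where Rag GTPases recruit it when amino acids are plentiful and RHEB switches it on when growth factors are present. The TSC1–TSC2 complex turns RHEB off, and DDIT4 (also called REDD1) acts through that complex under hypoxia, energy stress or glucocorticoids. The sestrins restrain the amino acid arm by binding GATOR2, DEPTOR binds mTOR itself, and FLCN with FNIP1 acts on the RagC and RagD GTPases and is needed for mTORC1 to hold TFEB and TFE3 out of the nucleus. FLCN, FNIP1 and RRAGD therefore belong to the nutrient arm and are not simple inhibitors. HCQ acts on the same organelle. Transcript levels do not measure the activity of the kinase.

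The promoter sequences of DDIT4, the member that rose in both lines, and of FNIP1, the member with the most motif matches, are shown as the 250 bases before the RefSeq start site, 5′ to 3′. The DDIT4 window lies at chr10:72273674-72273923 on the plus strand and the FNIP1 window at chr5:131797018-131797267 on the minus strand (hg38). Capitals mark ACGTG, the core of the hypoxia response element, in DDIT4, and CACGTG, the E-box core of lysosomal gene promoters, in FNIP1.
DDIT4: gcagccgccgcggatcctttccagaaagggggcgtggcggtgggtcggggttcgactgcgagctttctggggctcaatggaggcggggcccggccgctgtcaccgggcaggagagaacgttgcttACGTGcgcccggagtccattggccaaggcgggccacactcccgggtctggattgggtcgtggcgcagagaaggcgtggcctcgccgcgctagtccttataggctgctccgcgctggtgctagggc
FNIP1: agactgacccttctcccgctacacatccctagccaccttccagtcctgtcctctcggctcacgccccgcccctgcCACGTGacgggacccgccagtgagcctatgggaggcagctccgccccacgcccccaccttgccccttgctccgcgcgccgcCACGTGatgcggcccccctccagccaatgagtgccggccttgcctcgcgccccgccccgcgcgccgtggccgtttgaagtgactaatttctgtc

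The ACGTG core of DDIT4 began 125 bases before the start site (position -125), and the CACGTG cores of FNIP1 began at positions -175 and -94. On either strand, ACGTG was found in 21.4% of 35116 RefSeq promoter windows, each reaching from 250 bases before to 50 bases after a start site, and CACGTG in 7.3%. CACGTG contains ACGTG on both strands, so each CACGTG match also counts as ACGTG. A window was matched for 8 of the 10 members, with none for DEPTOR and RRAGD. ACGTG was found in 3 of those 8 genes (DDIT4, FNIP1 and TSC2) and CACGTG in 2 (FNIP1 and TSC2). TSC2 did not hold them in all of its windows. Here and for the HIF targets below, a gene counts if any of its windows holds the letters. The percentages are per window, so the 2 are not on the same footing. TGATGNAAT, a site of ATF4 with C/EBP partners found in 1.0% of windows, and GTAAACA, a FOXO site found in 3.4%, were in none of the 8. A match is a description of these letters and not a binding site.

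DDIT4 rose in HCQ-evolved cells of both lines. DDIT4 (ENSG00000168209, chr10:72273919-72276036, plus strand) encodes a short-lived protein that restrains mTORC1 through TSC2. In OVCAR3 its normalized level, in CPM with library sizes scaled by trimmed mean of M-values (TMM) over all 12 pools, was 160.2, 160.2 and 157.2 in control pools L, M and R, and 424.8, 533.1 and 435.0 in HCQ-evolved pools L, M and R. The lowest HCQ-evolved pool lay far above the highest control pool, and the control pools hardly differed. The mean went from 159.2 ± 1.70 to 464 ± 59.8 CPM (SD, n = 3), a log2 fold change of 1.56 (SE 0.17, 95% interval 1.17 to 1.95), with an adjusted p of 0.0101 by edgeR's quasi-likelihood test. Leaving out 1 pool of 6 moved the log2 fold change only between 1.46 and 1.62, but the adjusted p passed 0.05 without control L (0.105), control M (0.0557), control R (0.106) or HCQ-evolved M (0.0512).

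In CCL218 DDIT4 stood at 65.3, 70.1 and 53.7 CPM in control pools L, M and R, and at 268.7, 259.5 and 181.5 CPM in the HCQ-evolved pools. Control and HCQ-evolved pools were again apart, with HCQ-evolved R the lowest of its group. The mean went from 63.0 ± 8.44 to 237 ± 47.9 CPM (SD, n = 3), a log2 fold change of 1.90 (SE 0.19, 95% interval 1.45 to 2.36, adjusted p = 0.00376). This call was kept in each of 13 alternative fits, where the log2 fold change ranged from 1.80 to 2.06. The change in CCL218 exceeded that in OVCAR3 by 0.36 on the log2 scale (SE 0.24, 95% interval -0.17 to 0.90), which did not pass the test of the difference (adjusted p = 0.835). The 4 groups did not overlap in DDIT4 level, and their order from low to high was control CCL218, control OVCAR3, HCQ-evolved CCL218 and HCQ-evolved OVCAR3.

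**Figure D1:**
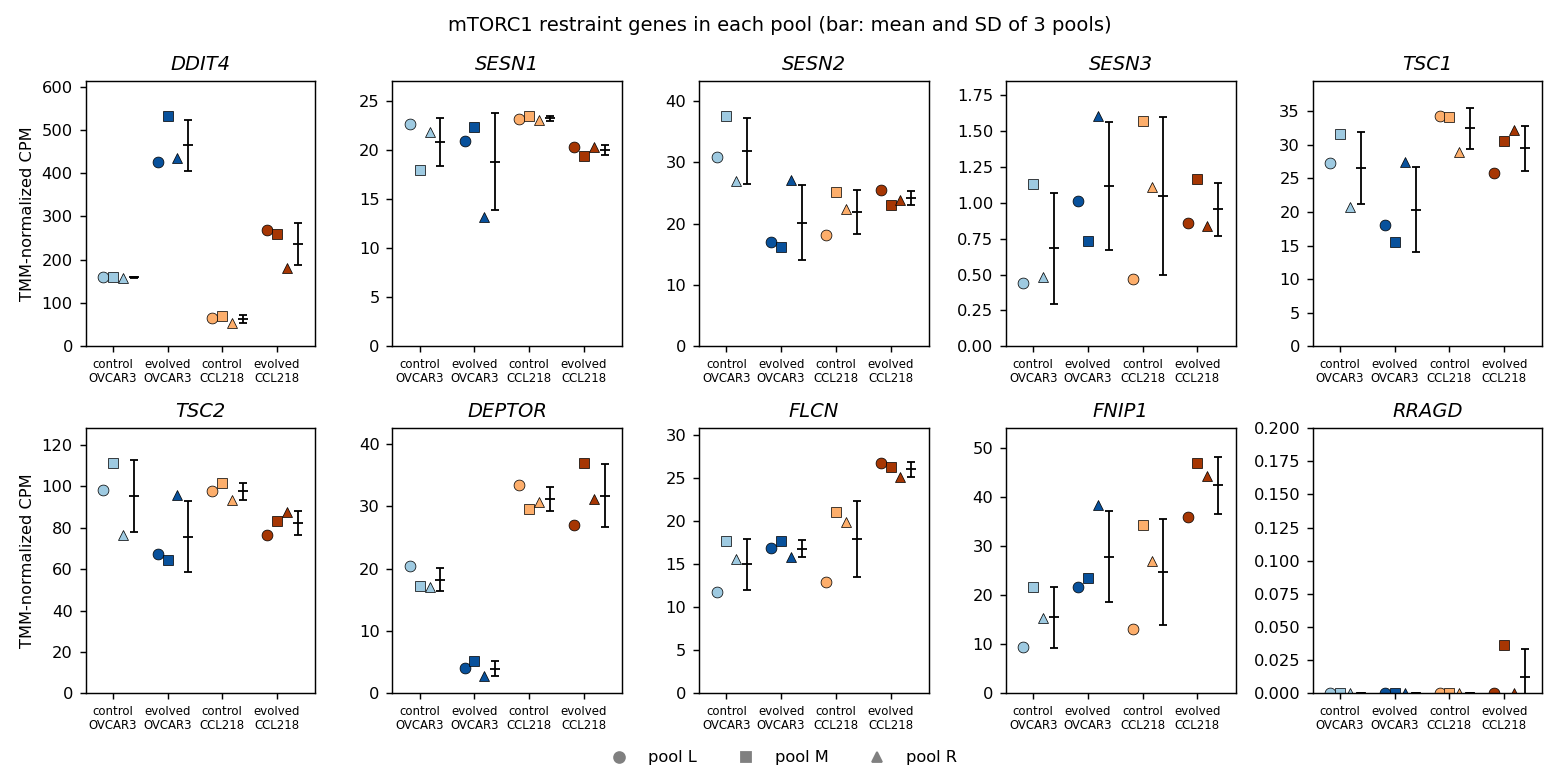
TMM-normalized CPM of the 10 members in each pool, 1 panel per gene with its own linear axis from 0. Symbols mark pools L, M and R, colours the 4 groups, and bars the mean and SD of 3 pools. DDIT4 is higher in the HCQ-evolved pools of both lines, DEPTOR is lower in HCQ-evolved OVCAR3 only, and RRAGD is at or near 0 throughout.

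DEPTOR fell in HCQ-evolved OVCAR3 and was level in CCL218. DEPTOR (ENSG00000155792, chr8:119873717-120050918, plus strand) encodes a subunit of both mTOR complexes that inhibits the kinase. In OVCAR3 it stood at 20.4, 17.2 and 17.1 CPM in control pools L, M and R, and at 4.09, 5.13 and 2.71 CPM in the HCQ-evolved pools. No pools overlapped, and HCQ-evolved R was lowest. The mean went from 18.2 ± 1.88 to 3.98 ± 1.21 CPM (SD, n = 3), a log2 fold change of -2.18 (SE 0.26, 95% interval -2.80 to -1.57, adjusted p = 0.0146), leaving a level of 0.22 times the control. The adjusted p passed 0.05 without control L (0.137), control M (0.0557), control R (0.106) or HCQ-evolved L (0.0586), while the log2 fold change stayed between -2.40 and -1.98.

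In CCL218 DEPTOR lay at 33.4, 29.6 and 30.8 CPM in the control pools and at 27.0, 37.0 and 31.2 CPM in the HCQ-evolved pools. These values overlapped, and the log2 fold change was 0.02 (95% interval -0.34 to 0.37, adjusted p = 0.951), an interval that leaves out a fall of the size seen in OVCAR3. The change in CCL218 was 2.22 higher on the log2 scale than that in OVCAR3 (SE 0.30, 95% interval 1.56 to 2.88, adjusted p = 0.00603). DEPTOR was the member whose change passed the test between lines, 1 of 9 tested, where 0.872% of 12613 genes passed. That call was kept in each of 18 alternative fits, with a difference between 2.01 and 2.45.

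By the same test, 1 of the 8 members tested in OVCAR3 rose (DDIT4) and 1 fell (DEPTOR). Over all 12204 genes tested there, 0.647% rose and 1.21% fell. In CCL218 1 of the 9 members tested rose (DDIT4) and 0 fell by edgeR's test, against 3.82% and 2.64% of 12241 genes. With plate position as a replicate block, 2 of the 9 rose (DDIT4 and FNIP1) and 0 fell, where 7.82% of all genes rose and 6.43% fell. DESeq2 called 1 of 9 higher and 0 lower there, where it called 9.02% and 8.72% of all genes, and in OVCAR3 1 of 8 in each direction, where it called 4.44% and 4.61%. Before adjustment, 3 of 9 were higher and 0 lower in CCL218 at a p under 0.05 in edgeR, and 2 of 8 higher and 2 lower in OVCAR3. In DESeq2 3 were higher and 2 lower in CCL218, and 2 higher and 2 lower in OVCAR3. The share of all genes at DESeq2's unadjusted p is not given here. Over all genes, edgeR's unadjusted p was under 0.05 for 12.5% higher and 12.7% lower in CCL218 and for 8.38% higher and 7.87% lower in OVCAR3, the background for the counts at that p given for the lists below. Read without a test, the HCQ-evolved pools stood clear above the controls for 1 member in OVCAR3 (DDIT4) and clear below them for 1 (DEPTOR), where 13.0% and 12.7% of all genes did so. In CCL218 the same held for 3 members above (DDIT4, FLCN and FNIP1) and 2 below (SESN1 and TSC2), where 18.6% and 17.3% of all genes did so.

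**Figure D2:**
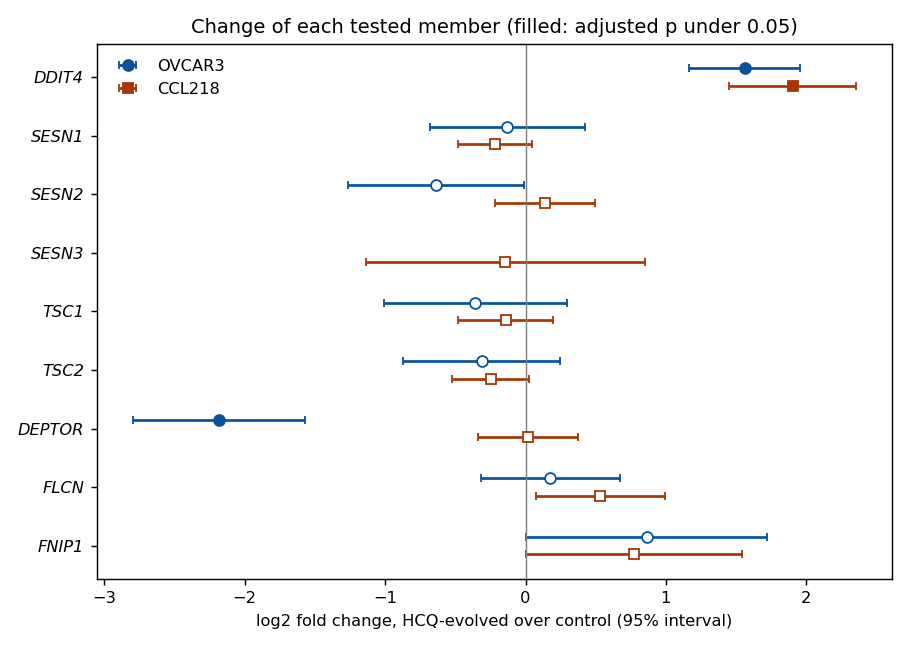
Log2 fold change of HCQ-evolved over control with its 95% interval for each member tested, circles for OVCAR3 and squares for CCL218. Filled symbols passed an adjusted p of 0.05. DDIT4 lies to the right in both lines, DEPTOR far to the left in OVCAR3 and at 0.02 in CCL218, and the other intervals cross or nearly reach 0.

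The sestrins did not change by the test in either line. SESN1 (ENSG00000080546, chr6:108984309-109094846, minus strand), a leucine-responsive inhibitor also known as a p53 target, stood at 22.6, 17.96 and 21.8 CPM in the control pools L, M and R of OVCAR3 and at 20.9, 22.3 and 13.1 CPM in the HCQ-evolved pools. The pools overlapped, with HCQ-evolved R lowest, and the log2 fold change was -0.13 (95% interval -0.68 to 0.42, adjusted p = 0.838). In CCL218 SESN1 was 23.1, 23.5 and 23.0 CPM in the control pools and 20.3, 19.4 and 20.3 CPM in the HCQ-evolved pools. Those pools were apart, all lower after HCQ, yet the difference was small, -0.22 on the log2 scale (95% interval -0.48 to 0.05, adjusted p = 0.273).

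SESN2 (ENSG00000130766, chr1:28259518-28282491, plus strand), the leucine sensor of the family and a transcript known to respond to ATF4 and p53, was 30.8, 37.6 and 27.0 CPM in the control pools of OVCAR3. In the HCQ-evolved pools it was 17.1, 16.1 and 27.2 CPM. HCQ-evolved L and M lay below all the controls and HCQ-evolved R lay within them, so the groups overlapped. The log2 fold change was -0.64 (SE 0.27, 95% interval -1.26 to -0.01, adjusted p = 0.296). Without HCQ-evolved R it was -0.93 with an adjusted p of 0.0462, and without control M and HCQ-evolved R, an alternative chosen after seeing the data, -0.79 with an adjusted p of 0.0318.

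In CCL218 SESN2 was 18.1, 25.1 and 22.5 CPM in the control pools and 25.4, 23.1 and 23.9 CPM in the HCQ-evolved pools. The groups overlapped, and the log2 fold change was 0.14 (95% interval -0.22 to 0.49, adjusted p = 0.59). The change in CCL218 was 0.80 higher than in OVCAR3 (95% interval 0.13 to 1.47, unadjusted p = 0.0233, adjusted p = 0.379), so the lines did not differ after adjustment over all genes.

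SESN3 (ENSG00000149212, chr11:95165513-95232541, minus strand), known as a FOXO target, was barely detected. It stood at 0.438, 1.13 and 0.481 CPM in control and at 1.01, 0.733 and 1.61 CPM in HCQ-evolved OVCAR3, and was not tested there, since the filter takes CPM on unscaled library totals and 2 pools reached 1 on that scale (control M at 1.16 and HCQ-evolved R at 1.65, with HCQ-evolved L at 0.967). In CCL218 it was 0.467, 1.57 and 1.11 CPM in control and 0.862, 1.17 and 0.836 CPM in HCQ-evolved pools. The groups overlapped in both lines, and the interval in CCL218 was wide (log2 fold change -0.15, 95% interval -1.14 to 0.85, adjusted p = 0.849).

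The TSC genes did not pass the test either. TSC1 (ENSG00000165699, chr9:132891348-132946874, minus strand), which stabilizes TSC2, was 27.3, 31.6 and 20.8 CPM in control OVCAR3 and 18.1, 15.6 and 27.4 CPM in HCQ-evolved OVCAR3. It was 34.3, 34.1 and 28.9 CPM in control CCL218 and 25.7, 30.6 and 32.2 CPM in HCQ-evolved CCL218. Control and HCQ-evolved pools overlapped in both lines, with log2 fold changes of -0.36 (95% interval -1.01 to 0.29, adjusted p = 0.586) and -0.14 (95% interval -0.48 to 0.20, adjusted p = 0.563).

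TSC2 (ENSG00000103197, chr16:2047967-2089491, plus strand), the GTPase-activating subunit that turns RHEB off, was 98.2, 111.4 and 76.7 CPM in control OVCAR3 and 67.1, 64.4 and 95.7 CPM in HCQ-evolved OVCAR3. It was 97.6, 101.7 and 93.5 CPM in control CCL218 and 76.3, 83.3 and 87.4 CPM in HCQ-evolved CCL218. The OVCAR3 pools overlapped, and every HCQ-evolved CCL218 pool was below every control. The log2 fold changes were -0.31 (95% interval -0.87 to 0.25, adjusted p = 0.579) and -0.25 (95% interval -0.52 to 0.02, adjusted p = 0.232), so neither line changed by the test. Exons of TSC1 overlap those of GFI1B and exons of TSC2 those of PKD1, both on the opposite strand. The strand setting of the counting is not given in the sources used here, so the levels of TSC1 and TSC2 are uncertain to that extent.

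FLCN and FNIP1 had higher means in the HCQ-evolved pools of both lines, and neither passed the test in the fit without a replicate block. FLCN (ENSG00000154803, chr17:17212212-17237188, minus strand), the folliculin tumour suppressor, was 11.8, 17.7 and 15.6 CPM in control OVCAR3 and 16.9, 17.8 and 15.8 CPM in HCQ-evolved OVCAR3. It was 12.9, 21.1 and 19.9 CPM in control CCL218 and 26.8, 26.3 and 25.1 CPM in HCQ-evolved CCL218. The pools overlapped in OVCAR3 and were apart in CCL218, where control L was lowest. The log2 fold changes were 0.18 (95% interval -0.32 to 0.67, adjusted p = 0.734) and 0.53 (95% interval 0.08 to 0.99, adjusted p = 0.147). Without control L the CCL218 value was smaller, 0.34, and passed the test (adjusted p = 0.0352). In that fit 1646 of 12102 genes were higher and 1401 lower, against 468 and 323 of 12241 with all pools.

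FNIP1 (ENSG00000217128, chr5:131641714-131797017, minus strand), the partner of folliculin, was 9.41, 21.7 and 15.2 CPM in control OVCAR3 and 21.6, 23.4 and 38.4 CPM in HCQ-evolved OVCAR3. It was 13.1, 34.2 and 26.9 CPM in control CCL218 and 35.8, 46.9 and 44.3 CPM in HCQ-evolved CCL218. The OVCAR3 groups met at control M and HCQ-evolved L, and the CCL218 groups were apart by a narrow gap. The log2 fold changes were 0.86 (SE 0.37, 95% interval 0.01 to 1.72, adjusted p = 0.305) and 0.78 (SE 0.33, 95% interval 0.01 to 1.54, adjusted p = 0.194).

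FNIP1 passed the test in CCL218 with plate position as a replicate block, at 0.87 (adjusted p = 0.0219), and with the block after removal of each pool's trend with transcript length and GC content, at 0.68 (adjusted p = 0.0294). With the trend removed and no block the value was 0.64 (adjusted p = 0.0702), and without control L it was 0.46 (adjusted p = 0.0386). Without control L 1646 of all 12102 genes tested were higher. Its changes in the lines differed by -0.07 (95% interval -1.23 to 1.08), an interval too wide to tell them alike or apart.

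Pools differed in how their deviations followed transcript length, and FNIP1 moved with that. FNIP1's transcript of 6568 bases is longer than 86.0% of the genes compared, and DDIT4's of 1744 bases is longer than 20.5%. Spearman's rho between a gene's length and its deviation from the cell line mean, over 11776 genes, was -0.519 in control CCL218 L, where FNIP1 was 1.25 below its line mean on the log2 scale. It was 0.488 in control CCL218 M, where FNIP1 was 0.14 above. In OVCAR3 rho was 0.545 in control M and 0.581 in HCQ-evolved R, the pools with the highest FNIP1 of their groups, and between -0.455 and -0.368 in the other 4. DDIT4 kept its groups apart over that whole range. These rho values run across genes, which are not independent replicates.

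**Figure D3:**
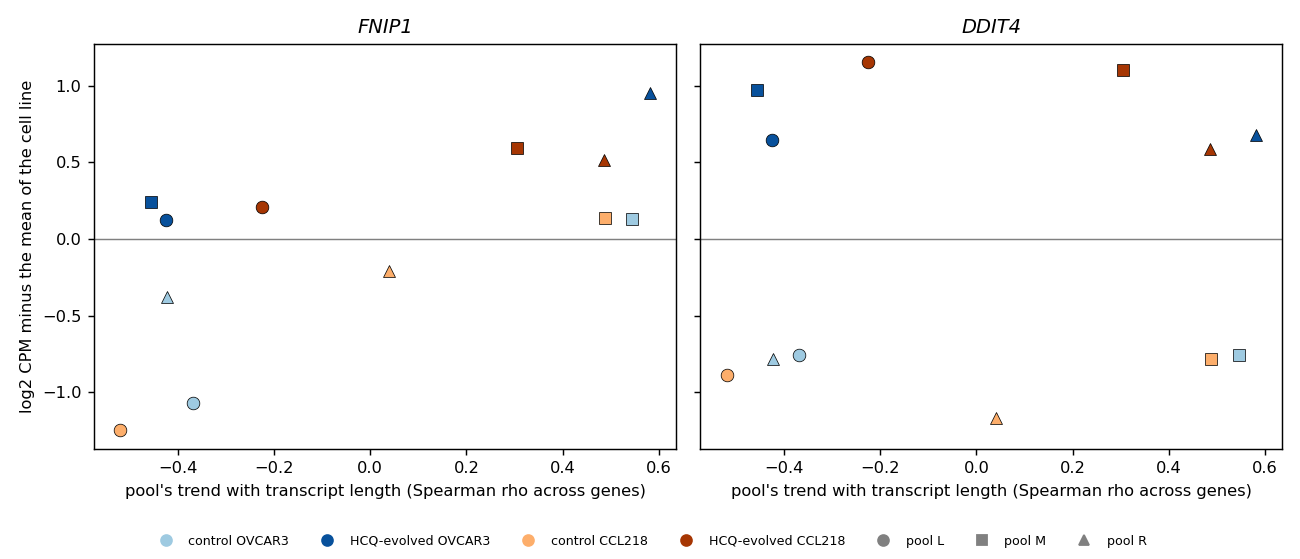
Deviation of FNIP1 (left) and DDIT4 (right) from the mean of their cell line, in log2 CPM, against each pool's Spearman rho between transcript length and deviation across 11776 genes. Each symbol is 1 of 12 pools. FNIP1 is lowest in control CCL218 L at a rho of -0.519 and highest in HCQ-evolved OVCAR3 R at 0.581, while DDIT4 separates control from HCQ-evolved pools at any rho.

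RRAGD (ENSG00000025039, chr6:89364616-89412273, minus strand), a Rag GTPase known as a TFEB and TFE3 target, had 0 counts in 11 pools and 2 counts in HCQ-evolved CCL218 M. All values lie under the limit of 3 counts that a count of 0 allows, which is 0.0502 to 0.0942 CPM per pool for counting error only. A change in RRAGD was not detectable at this depth, and no fold is given.

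Per kilobase of transcript, DDIT4 had the highest level of the members in each group and TSC2 the next. DDIT4 was at 36.1 ± 4.84 CPM per kb in control CCL218, 91.3 ± 0.977 in control OVCAR3, 136 ± 27.5 in HCQ-evolved CCL218 and 266 ± 34.3 in HCQ-evolved OVCAR3 (SD, n = 3). TSC2 lay between 11.8 ± 2.70 and 15.2 ± 0.639 CPM per kb in the 4 groups. In control CCL218 the order went on with DEPTOR at 12.2 ± 0.751, SESN2 at 6.32 ± 1.03, FLCN at 4.90 ± 1.21, SESN1 at 4.09 ± 0.0442, TSC1 at 3.77 ± 0.357 and FNIP1 at 3.76 ± 1.64. There SESN2 with FLCN, FLCN with SESN1, and TSC1 with FNIP1 overlapped between pools.

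In control OVCAR3 SESN2 came after TSC2 at 9.19 ± 1.56 CPM per kb and overlapped DEPTOR at 7.10 ± 0.733, and FLCN, SESN1, TSC1 and FNIP1 followed between 4.10 and 2.35, each overlapping the next. In HCQ-evolved OVCAR3 DEPTOR came below those 5, at 1.55 ± 0.473, and overlapped TSC1 at 2.37 ± 0.728. In HCQ-evolved CCL218 TSC2 overlapped DEPTOR at 12.3 ± 1.96, FLCN at 7.11 ± 0.238 overlapped SESN2 and SESN2 overlapped FNIP1, and SESN1 overlapped TSC1. SESN3 stayed at or under 0.117 CPM per kb on average in all 4 groups, and RRAGD was last.

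The genes whose pattern over the 12 pools was most like that of DDIT4 were named by Pearson's r of log2 CPM among 12612 genes, as a description. They were KCTD11 (r = 0.985), the adenosine receptor gene ADORA2B (0.982), the lactate dehydrogenase gene LDHA (0.98), the lactate exporter gene SLC16A3 (0.98) and the pyruvate kinase gene PKM (0.977). All share the libraries, and a high r here mostly follows the 4 group means. The choice by r therefore favours genes that rose in HCQ-evolved pools, so the tests that follow are not independent of it. ADORA2B rose in both lines, by 1.24 in OVCAR3 (adjusted p = 0.0335) and 1.35 in CCL218 (adjusted p = 0.00753) on the log2 scale. The other 4 passed the test in CCL218, with log2 fold changes of 0.68 to 1.13, and in OVCAR3 they were at 0.67 to 1.03 with adjusted p-values of 0.0521 to 0.176.

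DDIT4 is a known target of the hypoxia-inducible factors (HIF), and a list of 13 other HIF targets was examined beside it. In CCL218 12 of 13 rose and none fell, with a median log2 fold change of 1.40 where the median of all genes was -0.02. They were NDRG1, P4HA1, PFKFB4, EGLN3, ADM, VEGFA, CA9, SLC2A1, BNIP3L, ANKRD37, PDK1 and KDM3A, from 2.70 in NDRG1 to 0.96 in KDM3A, so DDIT4 at 1.90 lay within their range. BNIP3, at about 1 CPM, was at -0.06 (adjusted p = 0.937).

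In OVCAR3 4 of 12 HIF targets tested rose and none fell, with a median of 1.02 against 0.02 for all genes. PFKFB4, which sets glycolytic flux, rose by 1.78 on the log2 scale (SE 0.19, adjusted p = 0.0101), P4HA1, a collagen prolyl hydroxylase, by 1.65 (SE 0.23, adjusted p = 0.0215), EGLN3, a HIF prolyl hydroxylase, by 1.54 (SE 0.17, adjusted p = 0.0101) and BNIP3L, a mitophagy receptor, by 0.92 (SE 0.17, adjusted p = 0.0406). DDIT4 at 1.56 lay between P4HA1 and EGLN3. These calls changed when 1 pool was left out: 0 of the 12 passed without control L or control R, 1 without control M or HCQ-evolved M, 2 without HCQ-evolved L and 6 without HCQ-evolved R. At an unadjusted p under 0.05, 9 of the 12 were higher, where 8.38% of all genes were. DESeq2 called 8, where it called 4.44% of all genes. With plate position as a replicate block 2 passed (PFKFB4 and P4HA1), while EGLN3 and BNIP3L did not. Over all 12204 genes that block called 17 higher. In CCL218 leaving out 1 pool gave 6 (without HCQ-evolved M) to 12 of 13 (without control L). Over all genes those fits called 72 of 12131 and 1646 of 12102 higher. Between the lines 0 of the 13 differed by edgeR, 4 at an unadjusted p under 0.05 (9.11% of all genes) and 2 by DESeq2 (3.67% of all genes). All 13 differences were above 0, with a median of 0.44 where the median of all genes was -0.03 and 46.3% of all genes were above 0. The 13 genes were measured in the same pools, so their signs are not independent and make no test. The ACGTG core printed above in DDIT4 was also found in 5 of the 10 HIF targets with a promoter window, where 21.4% of all windows held it. These were ANKRD37, CA9, P4HA1, PDK1 (in only 1 of its windows) and BNIP3, which did not rise in CCL218. PFKFB4, EGLN3, ADM, SLC2A1 and KDM3A, which rose there, held none. Whether the core has a part in these changes was not tested.

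**Figure D4:**
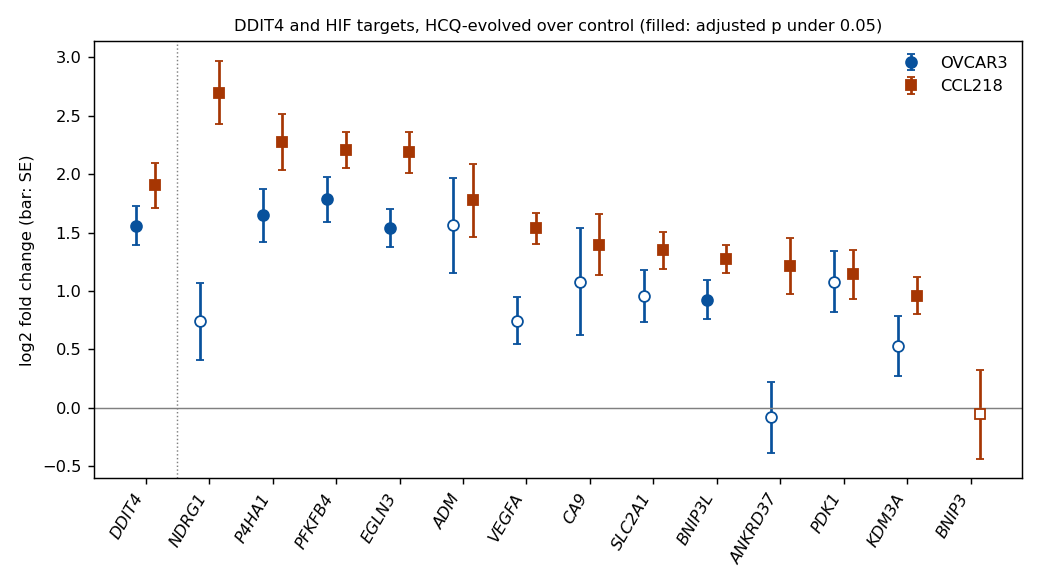
Log2 fold change with its SE for DDIT4, left of the dotted line, and 13 HIF targets, in OVCAR3 (circles) and CCL218 (squares). Filled symbols passed an adjusted p of 0.05. In CCL218 12 of 13 targets and in OVCAR3 4 of 12 tested are filled, and BNIP3 was not tested in OVCAR3.

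Transcripts of DDIT4 and the sestrins are also known to answer to ATF4, p53, FOXO and, for DDIT4, the glucocorticoid receptor. Of 10 ATF4 targets tested, 1 fell in OVCAR3 (ATF3, a stress-induced transcription factor, by 4.96 on the log2 scale, adjusted p = 0.000892) and 1 rose in CCL218 (VLDLR, a lipoprotein receptor, at 2.04, adjusted p = 0.00275). The medians were -0.44 in OVCAR3 and 0.12 in CCL218. At an unadjusted p under 0.05 in edgeR, 5 of the 10 were lower and 1 higher in OVCAR3, where 7.87% and 8.38% of all genes were. In CCL218 0 were lower and 1 higher. All 10 differences between lines were above 0, with a median of 0.70, where 46.3% of all genes were above 0. In edgeR 5 of them had an unadjusted p under 0.05 (9.11% of all genes), and ATF3 passed (difference 4.72, adjusted p = 0.00167). As with the HIF targets, the genes share their pools and the signs are not independent. DESeq2 called 4 of the 10 lower and 1 higher in OVCAR3 and 1 higher in CCL218. The OVCAR3 count lower was 2 when HCQ-evolved R was left out. In CCL218 3 were higher and 1 lower without control L, where 1646 of 12102 genes were higher and 1401 lower.

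Of 14 p53 targets tested, 2 fell in OVCAR3 and 1 rose in CCL218, with medians of -0.09 and -0.07. DESeq2 called 1 higher and 5 lower in OVCAR3 and 2 higher and 1 lower in CCL218, and the replicate block gave 2 higher (CDKN1A and FAS) and 1 lower (AEN) in CCL218. In OVCAR3 1 was higher and 4 lower without HCQ-evolved R, and 0 passed without any other single pool. In CCL218 2 were higher and 2 lower without control L, where 1646 of 12102 genes were higher and 1401 lower. CDKN1A, the p21 cell cycle inhibitor, fell by 1.35 in OVCAR3 (adjusted p = 0.0218) and rose by 1.19 in CCL218 (adjusted p = 0.00603), and the test between lines was passed (difference 2.56, adjusted p = 0.000539). GDF15, a stress cytokine, fell by 2.90 in OVCAR3 (adjusted p = 0.0289). SESN1 and SESN2, also p53 targets, passed in neither line. Both lines are p53 mutant according to the study, and the part of p53 in these changes was not tested.

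Of 10 FOXO targets tested, 3 fell in OVCAR3 and 3 others rose in CCL218, with medians of -0.39 and 0.57. INSR, the insulin receptor, was at -1.91 (adjusted p = 0.0206), KLF2, a zinc finger factor, at -1.43 (adjusted p = 0.0364) and FBXO32, a ubiquitin ligase subunit, at -0.86 (adjusted p = 0.0484) in OVCAR3. TXNIP, which limits glucose uptake, rose by 1.48 (adjusted p = 0.00596), PIK3IP1, a PI3K inhibitor, by 0.84 (adjusted p = 0.0291) and CCNG2, a cyclin of resting cells, by 0.55 (adjusted p = 0.0343) in CCL218. Of the 10 differences between lines 9 were above 0 (46.3% of all genes were), with a median of 0.52. These genes also share their pools, so the signs are not independent. By edgeR KLF2 (difference 2.60, adjusted p = 0.0089) and INSR (2.51, adjusted p = 0.00282) passed that test. At an unadjusted p under 0.05 in edgeR, 5 were lower and 2 higher in OVCAR3, where 7.87% and 8.38% of all genes were. In CCL218 1 was lower and 6 higher, where 12.7% and 12.5% were. There the replicate block gave 6 higher and 0 lower and DESeq2 6 higher and 1 lower. Leaving out 1 pool gave 0 higher (without HCQ-evolved M) to 7 higher and 2 lower (without control L). Over all genes those fits called 72 and 1646 higher, and 30 and 1401 lower, of 12131 and 12102. In OVCAR3 DESeq2 gave 1 higher and 3 lower, and the replicate block 1 lower (INSR). Leaving out 1 pool there gave 0 to 3 lower. It was 0 without any single control pool or HCQ-evolved M, and 1 without HCQ-evolved L.

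Of 4 glucocorticoid receptor targets tested, PER1, a circadian repressor, rose in CCL218 (0.61, adjusted p = 0.0345). There 3 of the 4 were higher at an unadjusted p under 0.05, and DESeq2 called the same number higher (PER1, KLF9 and TSC22D3). The replicate block called 2 (PER1 and KLF9). Leaving out 1 pool gave 3 without control L, where 1646 of 12102 genes were higher, and 0 without any other pool. In OVCAR3 0 of the 4 passed by edgeR or DESeq2, and 1 had an unadjusted p under 0.05 in edgeR (KLF9, unadjusted p = 0.0498, adjusted p = 0.307).

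Elsewhere in the pathway, of 12 other mTORC1 restraints tested, 2 fell in CCL218: CASTOR2, a homologue of the arginine sensor CASTOR1, at -1.18 (SE 0.19, adjusted p = 0.0176) and AKT1S1, which encodes the mTORC1 inhibitor PRAS40, at -0.53 (SE 0.12, adjusted p = 0.0464). CASTOR2 was at -0.97 in OVCAR3 with an adjusted p of 0.0588, and the lines did not differ by the test (difference -0.18, adjusted p = 0.999). The medians of that list were -0.11 in OVCAR3 and -0.24 in CCL218. In OVCAR3 0 of the 12 passed by edgeR, 1 was higher and 1 lower at an unadjusted p under 0.05, and DESeq2 called 1 lower. In CCL218 DESeq2 and the replicate block called the same 2 lower. There 0 passed without control R or any single HCQ-evolved pool, and 1 was lower without control M. Without control L 1 was higher and 2 lower, where 1646 of 12102 genes were higher and 1401 lower.

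Of the 18 genes of mTORC1 and its lysosomal activators, 0 passed in either line by edgeR. At an unadjusted p under 0.05 there were 0 in OVCAR3 and 1 in CCL218, and DESeq2 called 0 and 1. In CCL218 the replicate block called 1 lower, and 2 were lower without control L, where 1401 of 12102 genes were lower. The smallest p-values were those of RRAGB, a Rag GTPase, in OVCAR3 (log2 fold change -0.58, unadjusted p = 0.0574, adjusted p = 0.327) and LAMTOR1, the Ragulator subunit that anchors it to the lysosome, in CCL218 (-0.50, unadjusted p = 0.00865, adjusted p = 0.0837). The medians were 0.01 and -0.17. Of 16 upstream PI3K, AKT and AMPK genes, INSR was the one past the threshold, in OVCAR3, with a change 2.51 higher in CCL218 (adjusted p = 0.00282) and 0.58 there (adjusted p = 0.0741). In CCL218 the replicate block called 4 higher and DESeq2 3 higher, INSR among them in both. Without control L there were 4 higher and 2 lower, where 1646 of 12102 genes were higher and 1401 lower. In OVCAR3 DESeq2 called 2 lower (INSR and PRKAB1), and 0 passed without any one control pool or HCQ-evolved M. The medians were -0.01 and -0.06. Of 13 mTORC1 substrates and effectors, ULK1, the kinase that starts autophagy and is held off by mTORC1, rose in CCL218 (1.34, SE 0.15, adjusted p = 0.00475) and was at 0.88 in OVCAR3 (adjusted p = 0.0732), where DESeq2 called it higher. The medians were 0.04 and 0.12.

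Of 12 TFEB and TFE3 targets tested, 0 passed in either line by edgeR. At an unadjusted p under 0.05, 1 was higher and 2 lower in OVCAR3 and 2 were higher and 1 lower in CCL218, and DESeq2 called 1 higher in OVCAR3 and 2 higher and 1 lower in CCL218. Over all genes that unadjusted p was reached by 8.38% higher and 7.87% lower in OVCAR3 and by 12.5% and 12.7% in CCL218. In CCL218 the replicate block called 1 lower (MCOLN1), and 2 were higher without control L, where 1646 of 12102 genes were higher. The smallest p-values were those of the lysosomal protease genes CTSD in OVCAR3 (log2 fold change 0.67, unadjusted p = 0.0108, adjusted p = 0.143) and CTSB in CCL218 (0.43, unadjusted p = 0.0058, adjusted p = 0.0677). The medians were 0.18 and 0.13. RRAGD, another known target, was at 0 or 2 counts in every pool.

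**Figure D5:**
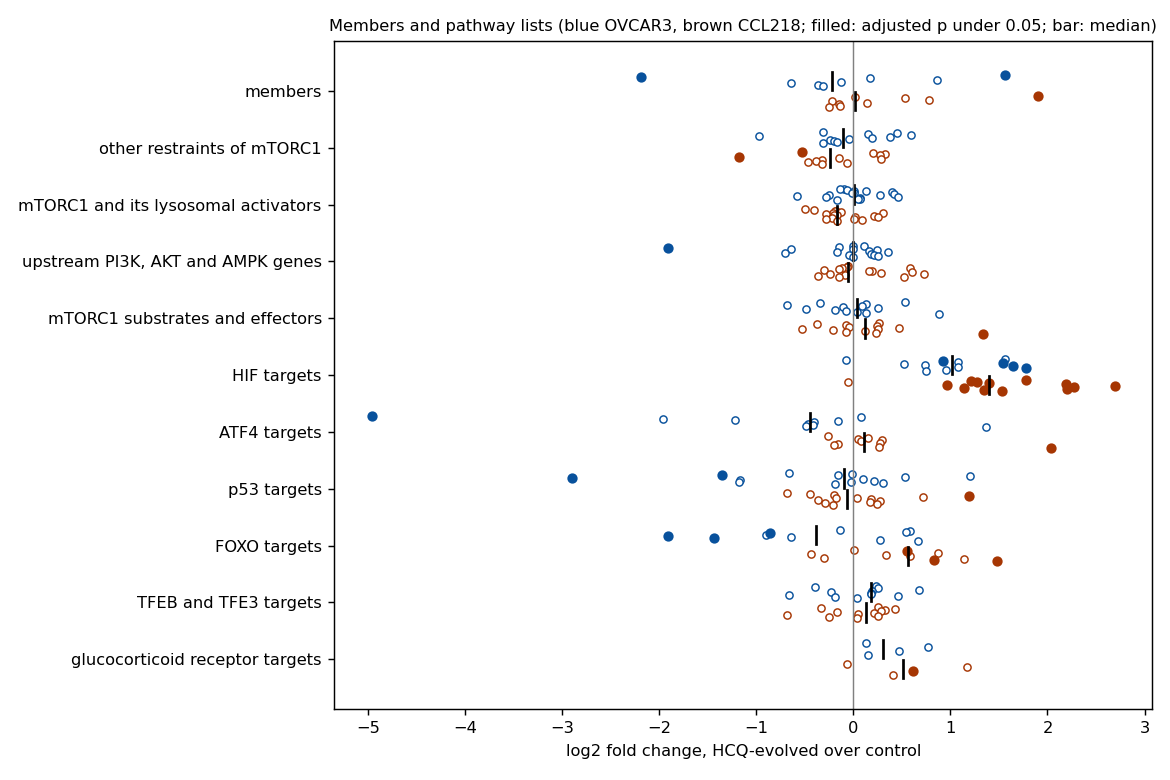
Log2 fold change of HCQ-evolved over control for each tested gene of the members and 10 pathway lists, blue for OVCAR3 and brown for CCL218. Filled points passed an adjusted p of 0.05 and black bars are medians. The HIF targets lie to the right in both lines, with medians of 1.02 and 1.40, and the medians of the members are -0.22 and 0.02.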

How the data were processed

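Bulk polyadenylated RNA had been sequenced in 12 pools, 4 groups of 3, grouped by the cell line and treatment in the labels. Per the labels and the study's methods, the authors aligned reads to hg38 with STAR, removed duplicates and counted genes with featureCounts, and the deposited table holds raw gene counts, with a mean of 49.2 M per pool. Tool versions, gene annotation and the strand setting of the counting are not given in the sources used here.

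From those counts, genes reaching 1 CPM, on unscaled library totals, in at least 3 pools were tested in each cell line with edgeR 4.0.16 in R 4.3.3 (TMM scaling, robust quasi-likelihood F test, Benjamini-Hochberg adjustment over all genes tested, threshold 0.05, two-sided). SE is the log2 fold change divided by the square root of F. The difference between lines was a contrast in a fit of all 12 pools, and the CPM shown are scaled over all 12. The code was tested on simulated data. An exact permutation test of 3 against 3 pools cannot go below p = 0.1 and was not used.

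The members and gene lists were chosen with earlier results of these data known, so no p adjusted over a list is given. Named by rule were the members, each list's genes past the threshold in either line (or the smallest p in each line), and the 5 genes most like DDIT4. The listed genes KICS2 and SAMTOR were found under older symbols. Lengths come from GENCODE 44 and matched 92.8% of symbols, and promoters from RefSeq (GRCh38.p14). Alternatives were DESeq2 1.42.0, its size factors, no filter, 1 fit of all pools, removal of each pool's trend with length and GC content, plate position as a replicate block, and each pool left out. Of 28278 symbols, none was left out of library sizes. No 2 pools of a group were alike within sampling noise.

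Plate position was checked as a pairing, since the study kept each well in place and ran paired plates. In CCL218 the deviations of control and HCQ-evolved pools of the same position had an r of 0.542, 0.27 and 0.227 for L, M and R. Control M had a higher r with HCQ-evolved R (0.471), so position alone did not match these pools. The other pairs of unlike position lay between -0.619 and 0.122. In OVCAR3 the values were 0.422, -0.692 and -0.5, with 0.715 between control M and HCQ-evolved R, and pools there share only a position. The fits reported are without the block in both lines. For CCL218 the blocked value is given where it changes a call or a count, and for OVCAR3 where it changes the count of a list.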

Additional observations from a re-analysis of the deposited data

Results flagged for a closer look

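The change in DEPTOR, the mTOR-binding inhibitor, differed between the cell lines. It was 2.22 higher on the log2 scale in CCL218 than in OVCAR3 (SE 0.30, 95% interval 1.56 to 2.88) by the interaction test in edgeR over 12 pools (adjusted p = 0.00603). DEPTOR was lower in 3 of 3 HCQ-evolved OVCAR3 pools than in any control pool of that line, and in CCL218 the pools overlapped.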

How the results depend on the processing

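In OVCAR3 2 members passed, and leaving out 1 pool gave 0 to 3: 0 without any one control pool, 1 without HCQ-evolved L (DDIT4) or M (DEPTOR), and 3 without HCQ-evolved R or, chosen after seeing the data, without control M and HCQ-evolved R together (DDIT4, DEPTOR and SESN2). In CCL218 1 member passed, leaving out 1 pool gave 1 to 3 (3 without control L), and plate position as a replicate block gave 2 (DDIT4 and FNIP1), as did the block with the length and GC trend removed, an alternative chosen after seeing the data. The block changed no other member's call in either line, and in OVCAR3 it moved the genes called from 79 higher and 148 lower to 17 and 64, and in CCL218 from 468 and 323 to 957 and 787. The count of 1 for the difference between lines was the same in all 18 alternatives.

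The signs that turned were of changes that passed no test, and the cause was not tested. SESN1 in OVCAR3 ranged from -0.26 to 0.065 with 1 pool left out. DEPTOR in CCL218 ranged from -0.094 to 0.124 with 1 pool left out, and was -0.023 with the trend removed and -0.03 with the trend removed and the block. Of the differences between lines, SESN1 ranged from -0.273 to 0.072, TSC2 from -0.037 to 0.292 and FNIP1 from -0.391 to 0.236 with 1 pool left out, and TSC2 was -0.04 with the trend removed.

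Over all genes, calls in OVCAR3 ranged from 0 to 614 higher and from 3 to 607 lower, and in CCL218 from 72 to 1646 higher and from 30 to 1401 lower (the highest without control L). Removing the length and GC trend gave 614 higher and 447 lower in OVCAR3 and 1188 and 1200 in CCL218. Depth limits SESN3, at about 1 CPM, and RRAGD, under 3 counts in every pool.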
